A study of Mus musculus with 4 samples.

Results

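The Rab GTPases and the Vps (vacuolar protein sorting) genes were taken as every row of the expression table whose gene symbol is Rab or Vps followed by a number and at most 1 letter. The rule found 93 of the 56883 genes in the table, 59 Rab and 34 Vps genes. RNA-seq libraries had been made from tdTomato-positive cells sorted from the basal telencephalon of E14.5 mouse embryos, the ventral forebrain in which cortical interneurons are born. The 2 control libraries came from Sst-Cre/tdTomato embryos and the 2 Dnmt1 KO libraries from Sst-Cre/tdTomato/Dnmt1 loxP2 embryos, so both genotypes carried the Cre driver and the reporter, and the KO cells carried floxed Dnmt1 as well. Cre was driven from the somatostatin gene (Sst), which limits the deletion to cells that express or have expressed Sst. Per the study's methods the 2 libraries of a genotype were processed separately, each from cells pooled over several embryos, and the labels give 50000 cells per genotype. The p-values below thus measure the spread between such pools and not between single embryos.

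Rab proteins are small GTPases that sit on the membranes of the secretory and endocytic routes. In the GTP-bound state they recruit effectors such as motors, tethers and coat regulators, and each compartment carries its own set. Vps genes were named for yeast mutants that missort vacuolar proteins, and most encode subunits of complexes that sort or tether membranes: retromer returns cargo from endosomes, HOPS, CORVET, GARP and EARP tether vesicles before fusion, and ESCRT proteins bud vesicles into the endosome. In migrating neurons this traffic moves adhesion and guidance receptors to and from the cell surface.

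Most Rab and Vps genes differed little between Dnmt1 KO and control cells. Of the 80 members with enough counts to test, 6 passed the test. Rab3a, Rab5b, Rab12, Vps13c and Vps13d were higher in KO cells by 0.21 to 0.32 on the log2 scale, and Rab13 was lower by 1.37. In all, 7.50% of the tested members were called, against 17.3% of the 14323 genes tested, so the members were called at a lower share than the background. Each of the 6 calls was lost when at least 1 of the 4 libraries was left out.

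Values are normalized counts, which are reads per gene divided by a size factor of the library. Recovered whole reads per library were 8376711 and 7276779 in control and 7744944 and 6970247 in Dnmt1 KO. A gene was tested if its mean over the 4 libraries was at least 10, and a call means an adjusted p below 0.05 in limma on log2(normalized count + 1), with Benjamini-Hochberg adjustment over all genes tested. For 1 gene in 2 libraries against 2, the smallest p an exact permutation test allows is 0.333, so the calls rest on the spread that limma shares between genes. Dnmt1 itself, counted over the whole gene, had normalized counts of 2238 and 2341 in control and 2164 and 2210 in KO, a log2 fold change of -0.066 (limma adjusted p = 0.461), and this count does not separate floxed from intact transcripts. The labelled cell type showed in its markers, with Sst at 5580 and 5963 in control and 8303 and 7825 in KO. The summed counts of other cell types differed between genotypes. Blood markers summed to 2615 and 2434 in control and to 586.9 and 593.3 in KO, with all 8 tested lower and 1 of 12 at 0 in every library. Radial glia and cycling cell markers summed to 14750 in each control library and to 9224 and 9406 in KO (10 of 12 lower, 1 higher), excitatory lineage markers to 3626 and 3711 in control and 1990 and 1829 in KO (10 of 12 lower), and markers of vessels, fibroblasts, microglia and oligodendrocyte lineage to 737.4 and 695.2 in control and 317.6 and 339.8 in KO (7 of 10 tested lower). The 12 interneuron markers summed to 23890 and 24040 in control and 36860 and 37230 in KO (11 higher). These sums moved with genotype, and so with every called member, and their part in the calls was not tested. In sorted bulk RNA, fewer cells of a type and less RNA per cell cannot be told apart.

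In total 90 members had at least 1 read. The 80 tested comprised 46 of 59 Rab genes and 34 of 34 Vps genes. The 13 that fell short were all Rab genes: Rab7b, Rab17, Rab19, Rab20, Rab25, Rab26, Rab27a, Rab29, Rab32, Rab37, Rab38, Rab42 and Rab44. Rab17, Rab20 and Rab25 had no read in any library, and Rab17 and Rab25 are known as Rabs of polarised epithelia. Rab27a, a Rab of secretory granules, lay closest to the filter with 14.32 and 8.167 in control and 9.864 and 7.648 in KO.

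**Figure D1:**
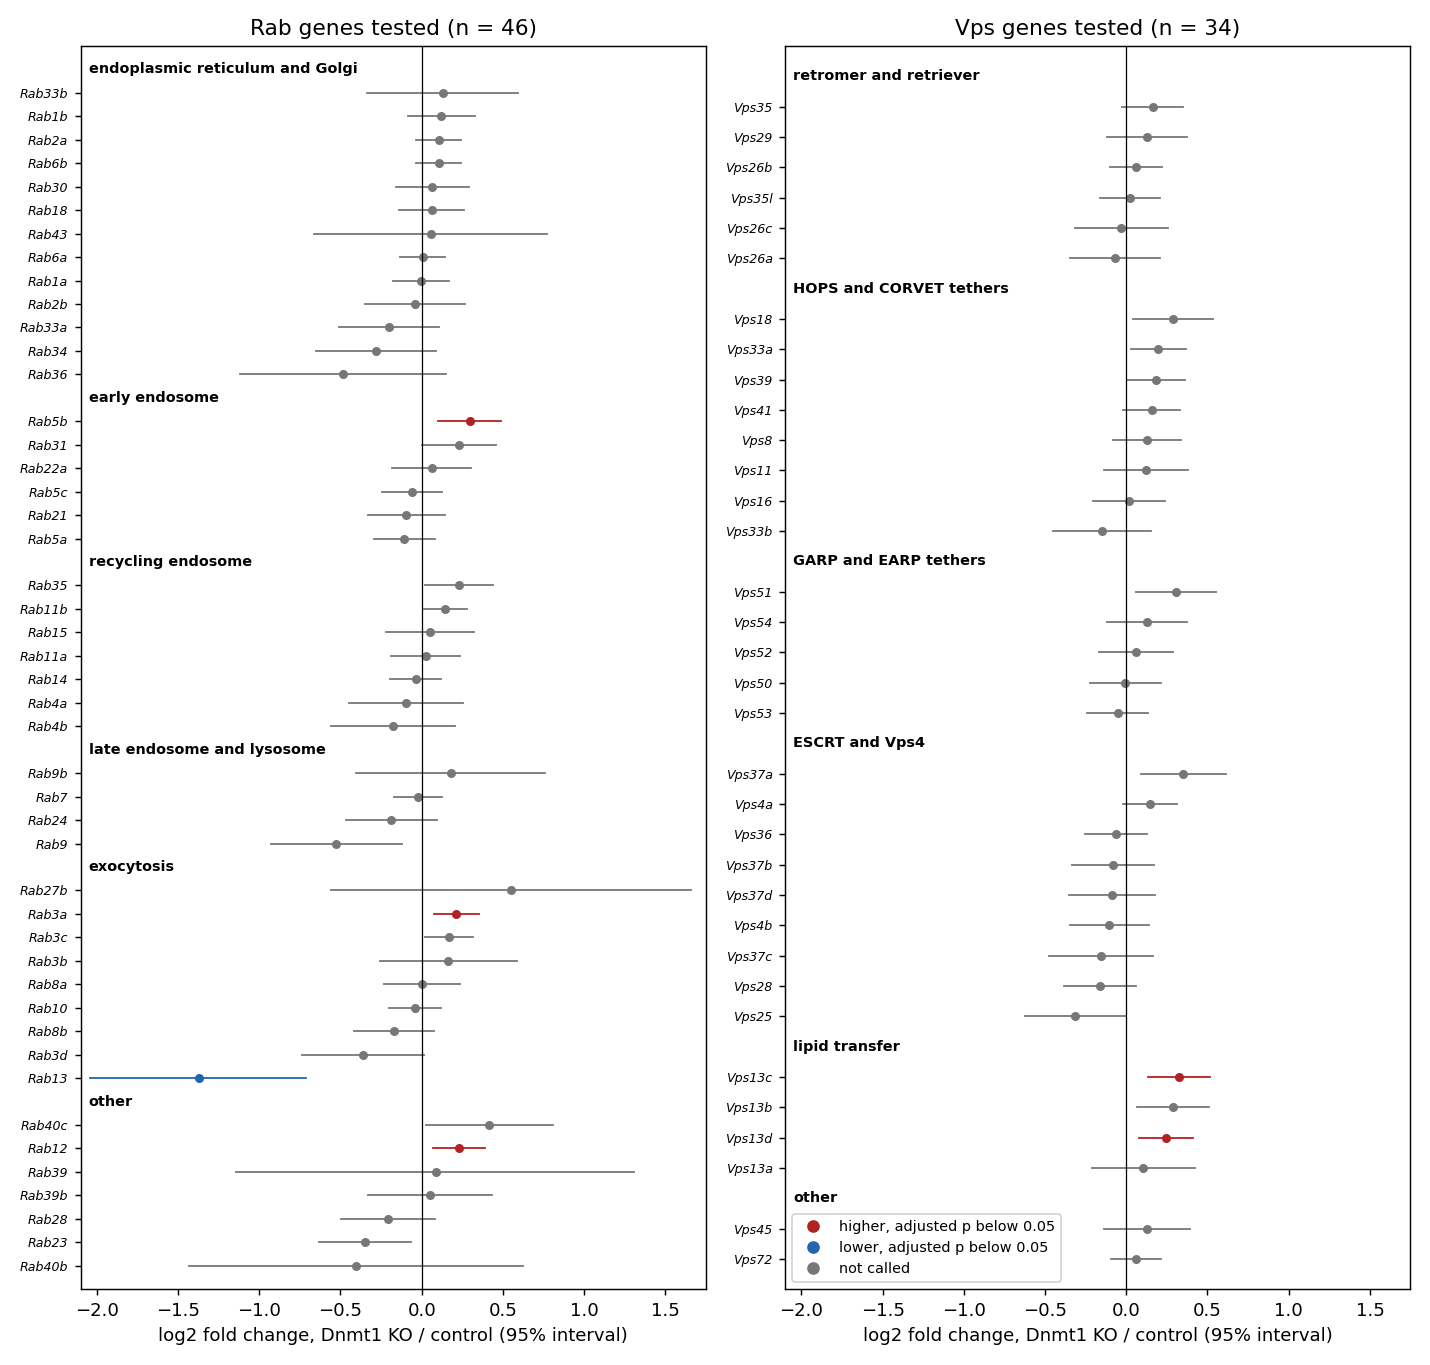
Log2 fold change of Dnmt1 KO over control (x axis) with its 95% interval for the 46 tested Rab genes and the 34 tested Vps genes, grouped by role. Red marks the 5 members called higher, blue marks Rab13, called lower, and grey marks the 74 not called, and apart from Rab13 nearly every point lies close to 0.

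Among the Rab genes, 3 of 46 were called higher and 1 lower (8.70% called). Among the Vps genes, 2 of 34 were called higher and 0 lower by limma (5.88% called, with 1 lower at unadjusted p below 0.05). Over all genes 8.3% were called higher and 8.99% lower. Without adjustment, 11 Rab genes (23.9%) and 9 Vps genes (26.5%) had p below 0.05, against 30.2% of all genes tested. The median log2 fold change was 0.01 over the tested Rab genes, 0.08 over the tested Vps genes and near 0 (-0.003) over all genes. A positive log2 fold change was found for 25 of 46 Rab and 22 of 34 Vps genes, against 49.5% of all genes. The 2 KO libraries both lay above the 2 control libraries for 12 Rab and 13 Vps genes and both below for 11 Rab and 6 Vps genes. Over all genes 28.4% lay apart in the higher and 29.0% in the lower direction (57.4% together). Summed over all Rab genes, normalized counts were 20050 and 19820 in control and 20780 and 20580 in KO, and over all Vps genes 13550 and 13890 in control and 14670 and 14740 in KO.

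The small differences were also fairly well bounded. The 95% interval of the log2 fold change lay entirely between -0.5 and 0.5 for 30 of 46 Rab genes (65.2%) and 28 of 34 Vps genes (82.4%), against 42.9% of all genes tested. Members had a median standard error of 0.11, against 0.16 over all genes, and a median normalized count of 307, against 148. Rab13 was the only called member past 0.5 in either direction.

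The Rabs of exocytosis held the largest difference. Rab13, which directs vesicles to cell junctions and growing processes (ENSMUSG00000027935.15, GRCm39 chr3:90121002-90133696, plus strand), had normalized counts of 47.43 and 57.17 in control and 21.70 and 17.48 in Dnmt1 KO. Both KO libraries lay far below both controls. The means were 52.3 ± 6.89 and 19.59 ± 2.98 (SD, n = 2), a log2 fold change of -1.37 (SE 0.311, 95% interval -2.04 to -0.71, limma adjusted p = 0.00633). Without control replicate 2 the log2 fold change was -1.24 with a limma adjusted p of 0.0839, and DESeq2 on the recovered reads gave an adjusted p of 0.0737. Rab13 was also the called member with the fewest counts. Like any gene lower in KO, it moved in the same direction as the blood, glial, excitatory and non-neuronal marker sums given above. A link between them was not tested.

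Rab3 proteins act on synaptic and dense-core vesicles before fusion. Rab3a (ENSMUSG00000031840.15, chr8:71207238-71211333, plus strand), the main Rab of synaptic vesicles, had 1053 and 1012 in control and 1177 and 1219 in KO. The groups did not overlap, at 1032 ± 29.4 and 1198 ± 30.1 (SD, n = 2), and the log2 fold change was 0.21 (SE 0.066, 95% interval 0.07 to 0.36, limma adjusted p = 0.0361). Leaving out any 1 library gave 0.19 to 0.24 and adjusted p-values of 0.058 to 0.184, so this call was lost each time. Rab3c had the highest counts of all 93 members, with 1660 and 1452 in control and 1692 and 1805 in KO. Its KO libraries both lay above the controls, KO replicate 1 by little, and its log2 fold change of 0.17 did not pass (limma adjusted p = 0.108). Rab3b had 142.3 and 90.86 in control and 124.3 and 131.1 in KO, which overlap (log2 fold change 0.17, limma adjusted p = 0.628). Rab3d, with 117.2 and 112.3 in control and 95.68 and 83.04 in KO, was the only Rab3 gene with a negative value, at -0.36, and it did not pass either (limma adjusted p = 0.186). The log2 fold changes of the other 4 tested genes of this group, Rab8a, Rab8b, Rab10 and Rab27b, ran from -0.17 to 0.55, the last being that of Rab27b, which had 30.59 counts or fewer per library.

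Among the early endosome Rabs, which organise the fusion of incoming endocytic vesicles, 1 of the 3 Rab5 genes was called. Rab5b (ENSMUSG00000000711.4, chr10:128512885-128532251, minus strand) had 427.7 and 391.0 in control and 507.0 and 497.1 in KO. The means of 409.4 ± 26.0 and 502.1 ± 6.97 (SD, n = 2) differed by 0.29 on the log2 scale (SE 0.092, limma adjusted p = 0.0376), and the groups did not overlap. The call held without control replicate 1 (adjusted p = 0.0447) and was lost without each of the other libraries (0.0841 to 0.195). Rab5a had 477.0 and 476.8 in control and 439.9 and 445.8 in KO, a log2 fold change of -0.11 (limma adjusted p = 0.462). Rab5c had 614.8 and 587.0 in control and 609.6 and 543.0 in KO, with overlapping groups (-0.062, limma adjusted p = 0.686). Differences between the paralogs were not tested. The other early endosome Rabs, Rab21, Rab22a and Rab31, had log2 fold changes of -0.10 to 0.23.

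**Figure D2:**
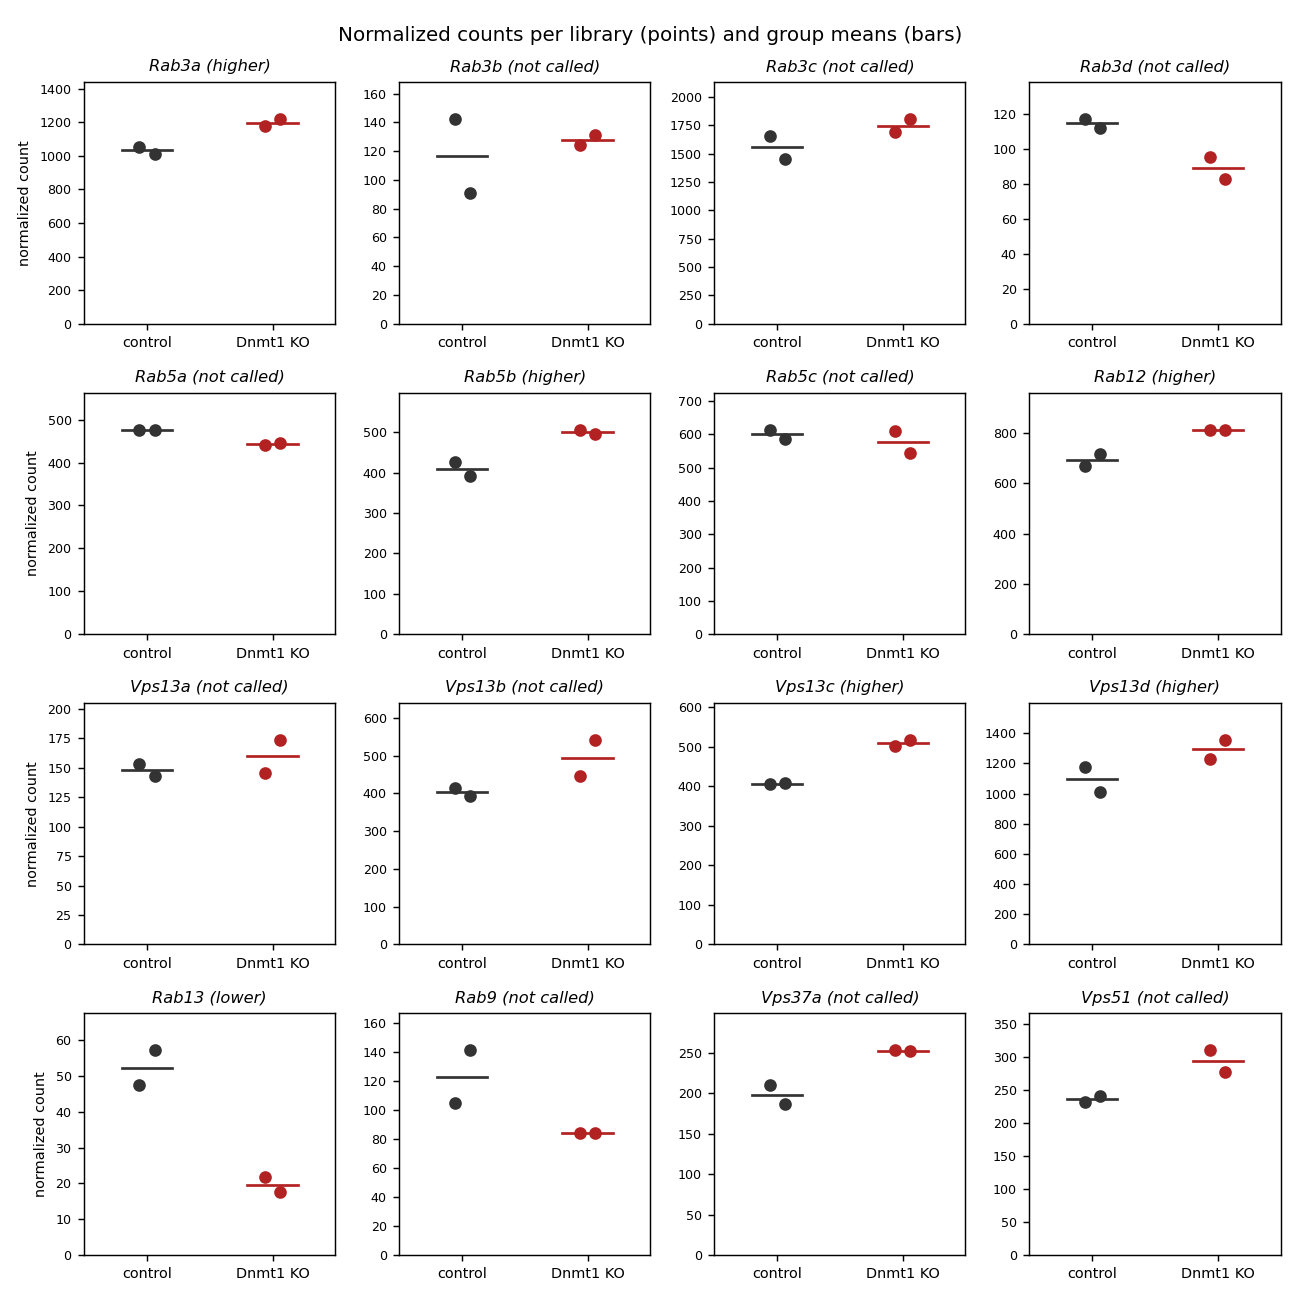
Normalized counts (y axis, from 0) of 16 members in each library, with points for libraries and bars for the means of the 2 control and the 2 Dnmt1 KO libraries. The groups of Rab3a, Rab5b, Rab12, Vps13c, Vps13d and Rab13 do not overlap, and only Rab13 differs between groups by more than the height of its own KO mean.

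Rab12, which acts on endosomal and lysosomal membranes and is a substrate of the kinase LRRK2 (ENSMUSG00000023460.15, chr17:66801503-66827268, minus strand), had 670.3 and 717.7 in control and 814.7 and 812.9 in KO. The KO libraries were nearly equal and above both controls, at 813.8 ± 1.31 against 694.0 ± 33.5 (SD, n = 2), for a log2 fold change of 0.23 (SE 0.076, limma adjusted p = 0.0485). Without any 1 library the adjusted p was 0.0573 to 0.203.

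No Rab of the endoplasmic reticulum and Golgi, the recycling endosome or the late endosome was called by limma, with 2 higher and 1 lower at unadjusted p below 0.05. The endoplasmic reticulum and Golgi Rabs, which carry newly made cargo forward and back, had log2 fold changes of -0.49 to 0.13 with a median of 0.05 over 13 tested genes. Rab6b, a neuronal Golgi Rab and the most counted of them, had 1334 and 1216 in control and 1362 and 1377 in KO (log2 fold change 0.10, limma adjusted p = 0.317). The 7 recycling endosome Rabs lay between -0.18 and 0.23, with a median of 0.02. Rab11b, which returns receptors from recycling endosomes to the surface, had 1473 and 1373 in control and 1584 and 1562 in KO (0.15, limma adjusted p = 0.126). Its groups did not overlap, but the difference did not pass. The 4 tested late endosome and lysosome Rabs lay between -0.53 and 0.18, with a median of -0.10. Rab7, the general late endosome Rab, had 1026 and 1115 in control and 1053 and 1055 in KO, with the KO values inside the control range (-0.021, limma adjusted p = 0.880). The lowest value of that group was that of Rab9, which serves transport from late endosomes to the Golgi, with 104.7 and 140.9 in control and 83.84 and 84.13 in KO (-0.53, limma adjusted p = 0.0694). The remaining tested Rabs apart from Rab12 lay between -0.40 and 0.42 and included Rab23, a negative regulator of Hedgehog signalling, at -0.35 (limma adjusted p = 0.0849).

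Among Vps genes, the called members were both VPS13 genes, which encode very long proteins that bridge organelles and transfer lipids between them. Vps13c (ENSMUSG00000035284.11, chr9:67747669-67905024, plus strand) had 405.4 and 407.3 in control and 501.1 and 516.8 in KO. The spread within each group was small against the gap between them, at 406.4 ± 1.39 and 508.9 ± 11.1 (SD, n = 2), and the log2 fold change was 0.32 (SE 0.089, limma adjusted p = 0.0200). The call held without KO replicate 1 (adjusted p = 0.0435) and was lost without each of the other libraries (0.0653 to 0.0955). Vps13d (ENSMUSG00000020220.17, chr4:144699192-144921614, minus strand) had 1177 and 1011 in control and 1231 and 1355 in KO, with means of 1094 ± 117 and 1293 ± 87.6 (SD, n = 2). Its groups lay apart, though control replicate 1 came close to KO replicate 1, and the log2 fold change was 0.24 (SE 0.079, limma adjusted p = 0.0450). Without control replicate 2 it was 0.13 (adjusted p = 0.338) and without KO replicate 2 0.17 (adjusted p = 0.224), while without either of the other libraries the call held (0.00848 and 0.0142). Vps13b had 413.4 and 392.0 in control and 446.8 and 541.9 in KO, a log2 fold change of 0.29 that did not pass (limma adjusted p = 0.0688). Vps13a, the gene of chorea-acanthocytosis, had 153.0 and 142.9 in control and 146.0 and 173.7 in KO, which overlap (0.11, limma adjusted p = 0.690).

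The remaining Vps complexes had no called member by limma, with 5 genes higher and 1 lower at unadjusted p below 0.05. The retromer and retriever subunits, which sort cargo out of endosomes, lay between -0.070 and 0.16 with a median of 0.04, and for all 6 the 95% interval lay within -0.5 to 0.5. Vps26b, the most counted of them, had 800.9 and 772.8 in control and 857.2 and 784.5 in KO (0.060, limma adjusted p = 0.654). The 8 genes listed with HOPS and CORVET, complexes that tether endosomes and lysosomes, had a median of 0.14, with 7 positive values. The 1 negative value was that of Vps33b, at -0.15, and whether its product is a subunit of these complexes was not examined. In 4 of these 8 genes both KO libraries lay above the controls, as they did in 28.4% of all genes. Vps33a, their SM protein that binds SNAREs, had 583.5 and 606.4 in control and 671.7 and 693.8 in KO, and 0.20 did not pass (limma adjusted p = 0.101). In the GARP and EARP complexes the 5 subunits lay between -0.054 and 0.31, Vps51 being the highest with 232.7 and 242.0 in control and 310.7 and 277.5 in KO (limma adjusted p = 0.0815). Vps53 had 496.6 and 468.6 in control and 457.7 and 472.0 in KO (-0.054, limma adjusted p = 0.739). The 9 genes of ESCRT subunits and of the Vps4 ATPases that take ESCRT filaments apart had a median of -0.09, with 7 negative values and 5 genes (55.6%) whose KO libraries both lay below the controls, against 29.0% of all genes. Vps4a had 775.0 and 884.1 in control and 907.5 and 924.3 in KO (0.15, limma adjusted p = 0.229). Vps37a, a subunit of ESCRT-I, had the highest value of this group without passing the test, with 210.3 and 186.8 in control and 253.5 and 252.4 in KO (0.35, limma adjusted p = 0.0635), while Vps37b, Vps37c and Vps37d had -0.083, -0.16 and -0.087, and differences between these paralogs were not tested. Vps72 shares only the name: it is a histone chaperone of H2A.Z, and had 853.7 and 924.9 in control and 938.0 and 916.7 in KO (0.061, limma adjusted p = 0.623).

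Members with the same number and at least 2 tested genes formed 18 sets of paralogs (12 Rab, 6 Vps). Of these, 11 held log2 fold changes of both signs, and 0 held calls in both directions by limma. Over all genes tested 49.5% of the log2 fold changes were positive, so mixed signs within a set are common without any difference between paralogs. Some mixed sets lay close to 0, such as Rab1 (-0.01 to 0.12) and Vps26 (-0.07 to 0.06). Differences within the sets were not tested. In the VPS13 set all 4 values were positive.

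Normalized counts rise with transcript length, so levels were compared between genes only per kilobase of transcript. In control cells Rab11b had the highest mean normalized count per kb of all members, at 743, followed among Rab genes by Rab3a at 596 and Rab1b, of the route from endoplasmic reticulum to Golgi, at 550. Among Vps genes Vps72 stood highest at 607 per kb, Vps28 of ESCRT-I followed at 376, Vps4a at 353 and Vps26b at 217. Vps13a, at 13.6 per kb, and Vps13b, at 29.1 per kb, were the lowest of the Vps genes. The VPS13 genes thus ranked low per length although Vps13d was the Vps gene with the most counts.

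Transcript length also went with the log2 fold change. The 4 VPS13 transcripts are 10901 to 15888 bases long, against a median of 3798 over the tested Vps genes, 3320 over the tested Rab genes and 3515 over all genes tested. Among all protein-coding genes tested, 1.19% of those under 2 kb were called higher and 13.8% lower, while of those of 6 kb and over 20.5% were called higher and 8.65% lower, with medians of -0.14 and 0.08. Across the 34 tested Vps genes the log2 fold change correlated with log2 transcript length (Pearson r = 0.59, Spearman rho = 0.53), and across the 46 Rab genes less so (r = 0.35, rho = 0.26). It also correlated with the log2 mean normalized count, across Vps genes (r = 0.41, rho = 0.41) and across Rab genes (r = 0.33, rho = 0.33). These are descriptions across genes measured in the same 4 libraries, and genes are not independent replicates. With the dependence on transcript length and GC content taken out of each library, Vps13c stood at 0.21 (limma adjusted p = 0.128) and Vps13d at 0.16 (0.163), neither of them called. Vps13a stood at -0.15. Rab3a, Rab5b, Rab12 and Rab13 kept their calls, Rab3a with 0.31 (limma adjusted p = 0.00398), and Rab1b (0.33), Rab11b (0.22) and Vps33a (0.24) were called in addition. That fit called 16.7% of all genes tested, 7.86% higher and 8.81% lower.

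**Figure D3:**
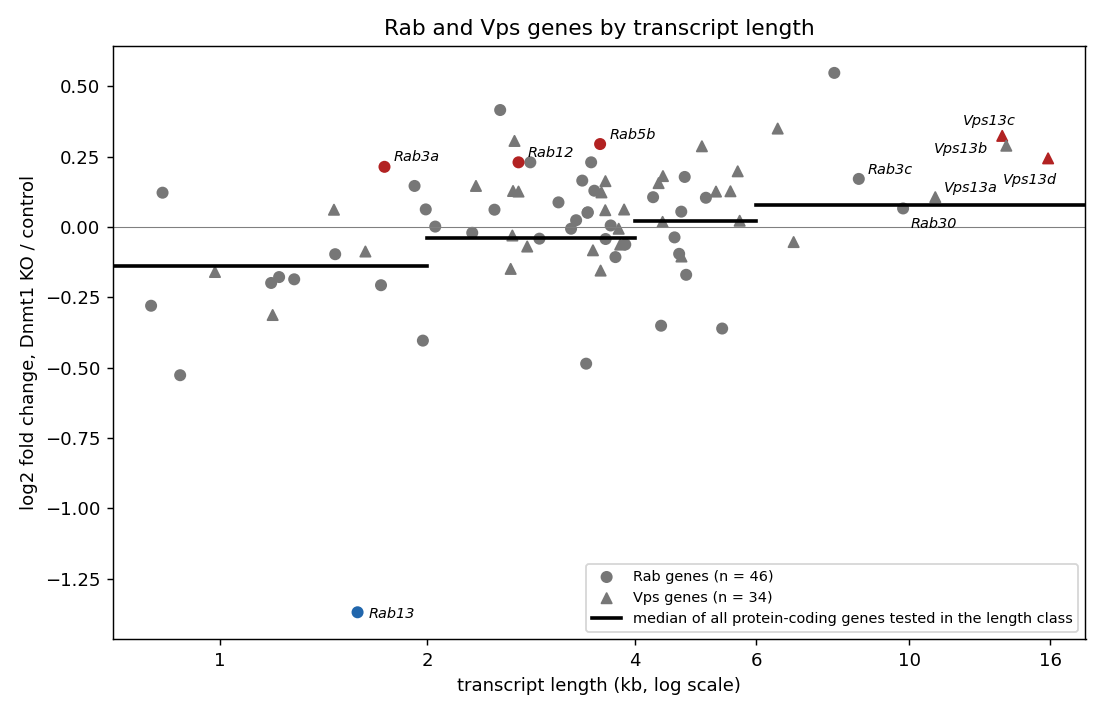
Log2 fold change of Dnmt1 KO over control (y axis) against transcript length in kb (log x axis) for the 46 Rab genes (circles) and the 34 Vps genes (triangles) tested, with red for members called higher and blue for Rab13, called lower. Black bars give the median of all protein-coding genes tested in each length class, from -0.14 under 2 kb to 0.08 at 6 kb and over, and the 4 VPS13 genes lie at the right, all above 0.

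How far the 6 calls depend on the fit is shown by the plot of each called member under every setting tried. None of them changed sign. edgeR on the recovered reads called 3 Rab genes higher, 1 lower and 2 Vps genes higher (17.6% of all genes, 8.56% higher and 9.09% lower), and these were the same 6 genes. DESeq2 on the same reads called 0 members, with 4 Rab and 2 Vps genes at unadjusted p below 0.05, while it called 9.17% of the genes it tested, 4.42% higher and 4.75% lower. When each library was left out in turn, 0 of the 80 members were called by limma in all 4 fits, whereas 3.46% of all genes tested were called higher and 3.5% lower in all 4.

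**Figure D4:**
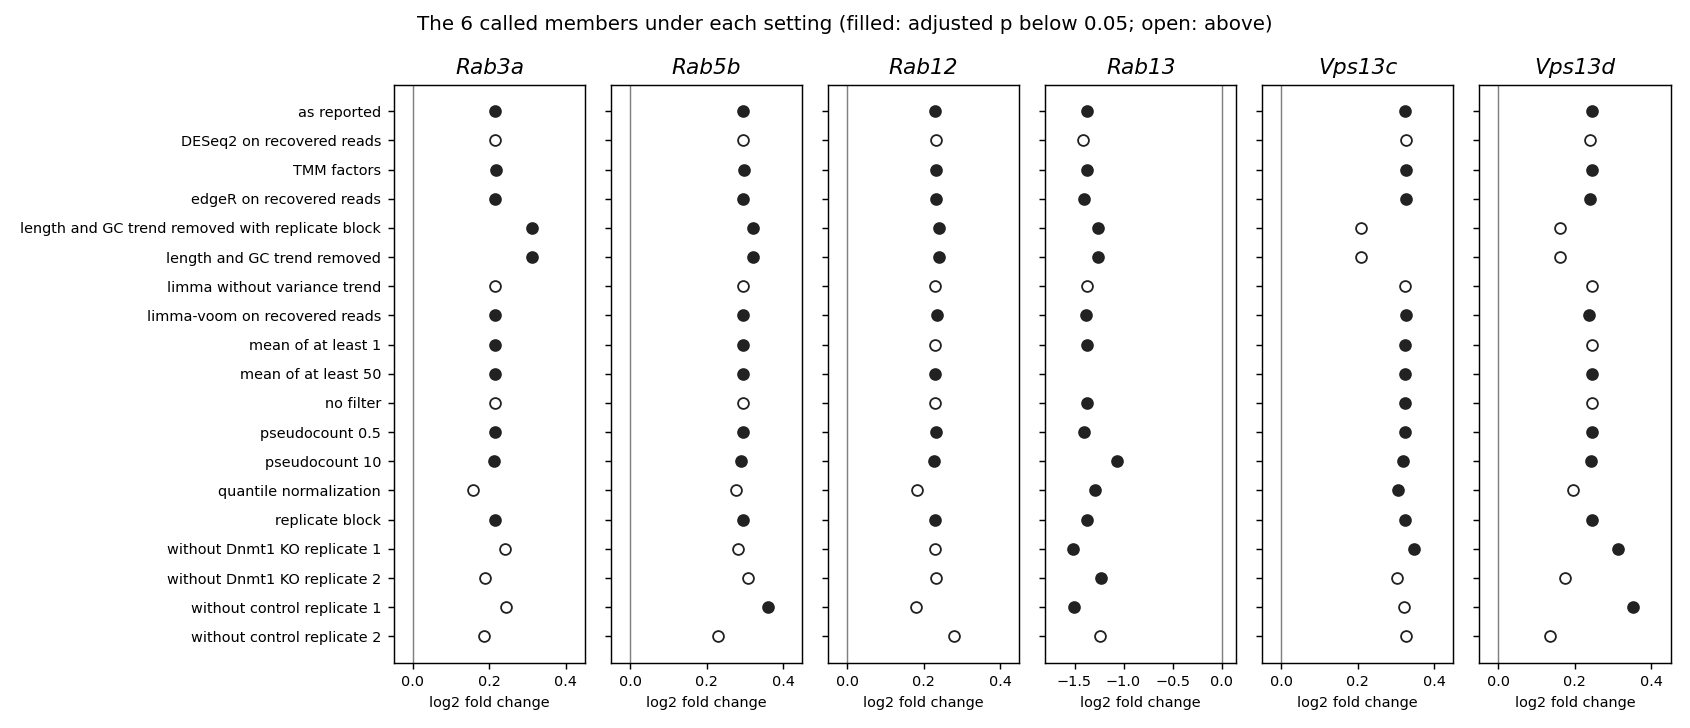
Log2 fold change (x axis) of the 6 called members as reported and under each alternative setting (y axis), filled where the adjusted p was below 0.05 and open where it was not. Every point of Rab3a, Rab5b, Rab12, Vps13c and Vps13d lies above 0 and every point of Rab13 below, with Rab13 absent where the mean had to be at least 50.

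Genes that work with the Rab and Vps proteins were read from lists of regulators, effectors and complex partners. Of 179 listed genes 178 were in the table and 166 were tested, of which 20 were called higher (12%) and 2 lower (1.20%), with a median log2 fold change of 0.06. Rab effectors, which bind GTP-loaded Rabs, accounted for most of these: 12 of 36 were called higher (33.3%) and 0 lower by limma (0 lower also at unadjusted p below 0.05), with a median of 0.17. Their median transcript length was 5980 bases. With the length and GC trend taken out 9 effectors were called higher and the median was 0.14. Myo5a, Appl1, Gcc2 and Eea1 lost their calls there (limma adjusted p = 0.123 to 0.188), and Rab11fip5 was called in addition (limma adjusted p = 0.0402). DESeq2 called 8 effectors higher. The largest difference was that of Rph3a (rabphilin 3A), an effector of Rab3 and Rab27 on vesicles, with 587.0 and 536.0 in control and 944.0 and 886.1 in KO. Both KO libraries lay far above the controls, and its log2 fold change of 0.70 (SE 0.080, limma adjusted p = 2.23e-05) stood beside values of -0.36 to 0.21 for the 4 Rab3 genes. Rab27b, with few counts and not called, had a log2 fold change of 0.55.

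Regulators and partners were called higher at shares nearer that over all genes (8.3%), and few were called lower (8.99% over all genes). Of 36 genes listed as GTPase-activating proteins, 4 were called higher (11.1%) and 0 lower by limma (1 lower at unadjusted p below 0.05). Such proteins switch Rabs off, but whether each listed product does so was not examined. Tbc1d30 led the list with 493.1 and 453.3 in control and 671.7 and 637.0 in KO (log2 fold change 0.47, limma adjusted p = 0.0015). Log2 fold changes were positive for 77.8% of the 36 genes, near the 75.0% of the effectors, against 49.5% of all genes tested. Of 29 activators, which load GTP, 2 were called higher (6.90%) and 1 lower (3.45%). Dennd5b rose from 651.5 and 635.0 to 804.9 and 810.7 (0.33, limma adjusted p = 0.00674), and with the length and GC trend taken out this long gene stood at 0.21 and was not called (limma adjusted p = 0.0652). Dennd2b fell from 87.70 and 104.1 to 58.20 and 37.15 (-1.02, limma adjusted p = 0.00894). Of 25 retromer partners and WASH complex genes, Snx27 was called higher (4.00% of the list, log2 fold change 0.32, limma adjusted p = 0.0215) and Snx5 lower (-0.40, limma adjusted p = 0.018). Snx27 links retromer to its cargo, and Snx5 shapes the tubules that leave the endosome. Mvb12b of ESCRT-I was the only called gene of 22 ESCRT partners (4.55%, log2 fold change 0.20, limma adjusted p = 0.0375). DESeq2 called 2 of the GTPase-activating proteins, Tbc1d30 among them, and 0 of the activators, retromer partners and ESCRT partners, so that Dennd5b, Dennd2b, Snx27, Snx5 and Mvb12b lost their calls there (adjusted p = 0.0534 to 0.181). None of the 8 genes for Rab prenylation and membrane extraction and none of the 10 tether partners and class III PI3-kinase subunits were called by limma (0 and 1 at unadjusted p below 0.05).

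**Figure D5:**
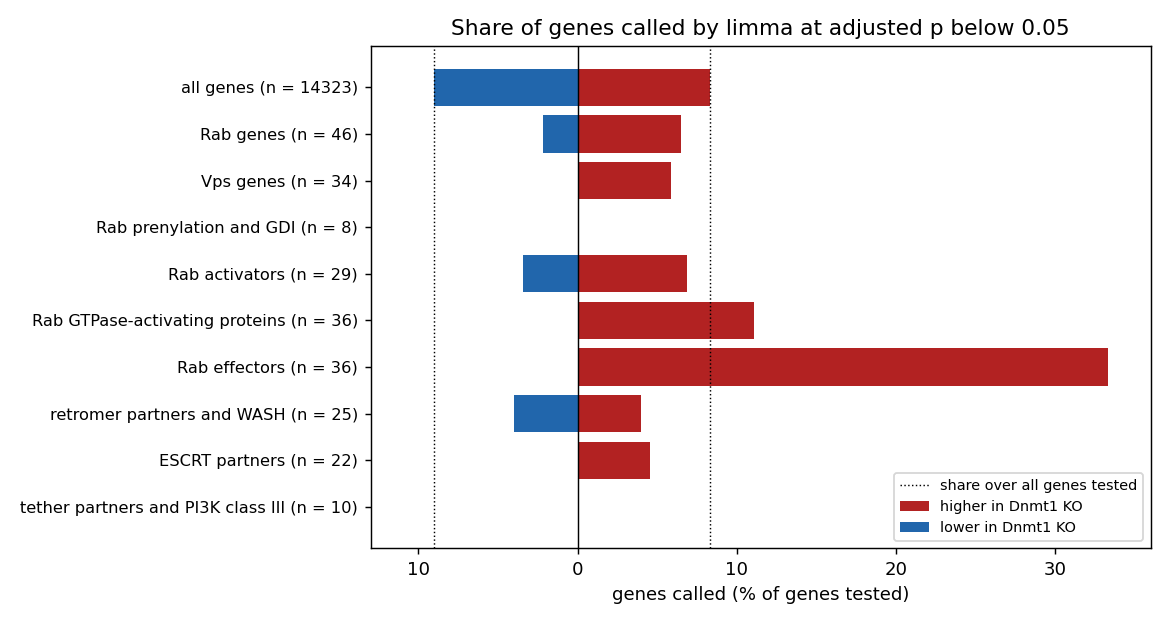
Share of genes called higher (red, to the right) and lower (blue, to the left) in Dnmt1 KO by limma, in % of the genes tested in each set, with dotted lines at the shares over all genes tested (8.3% and 8.99%). The Rab and Vps bars are short in both directions, and the Rab effectors reach 33.3% on the higher side.

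Some promoters of members carry the letters TCACGTGA, a palindromic E-box of the kind bound by TFEB and TFE3, transcription factors of lysosomal genes. In GRCm39, from 250 bases before to 50 after the start of the annotated canonical transcript, these letters (which read alike on both strands) were found in 212 of 12278 promoters of tested protein-coding genes (1.73%) and in 6 of 80 tested members (7.50%). They are shown with 11 bases on either side, on the strand of the gene and with the motif in capitals, because they are a sequence feature that members of different compartments have in common. Vps33a holds 2 matches, of which the downstream match is given.
Rab21, chr10:115151509-115151538, minus strand: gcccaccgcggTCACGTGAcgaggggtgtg
Rab24, chr13:55469774-55469803, minus strand: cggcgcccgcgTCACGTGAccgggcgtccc
Rab5a, chr17:53786155-53786184, plus strand: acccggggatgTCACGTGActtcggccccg
Vps11, chr9:44272950-44272979, minus strand: cgcctttcggtTCACGTGAtttcgcttccg
Vps26a, chr10:62322749-62322778, minus strand: cgcacggctcgTCACGTGAcaactagctct
Vps33a, chr5:123711073-123711102, minus strand: tgaacgtcccgTCACGTGAcgcaggcggcg
None of these 6 genes was called by limma in the fit as reported. With the length and GC trend taken out Vps33a was called (0.24, limma adjusted p = 0.0492). Their log2 fold changes were -0.10 for Rab21, -0.19 for Rab24, -0.11 for Rab5a, 0.12 for Vps11, -0.070 for Vps26a and 0.20 for Vps33a, and a match describes the letters only.

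Many members share exonic bases with a neighbouring gene, and whether reads were counted by strand is not given in the sources used here. On the opposite strand, Vps29 shares 5532 bases with Fam216a, Vps37a 3024 with Mtmr7 and Vps26b 1686 with Thyn1. Rab5a likewise shares 1139 with Pp2d1 and Vps4a 921 with Cog8, and other members not named here overlap neighbours too. Rab3a shares 541 bases with Mpv17l2 on the opposite strand, and Rab12 shares 184 bases with an opposite-strand long noncoding RNA. No shared exonic base was found for Rab5b, Rab13, Vps13c or Vps13d. Rab43 and Rab4b share 4164 and 1280 bases with protein-coding genes annotated on their own strand, Vps25 shares 1133 with Ramp2 and Vps51 shares 532 with Tm7sf2, and the counts of these members are uncertain.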

How the data were processed

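RNA was sequenced from FACS-sorted tdTomato-positive cells, with 2 control and 2 Dnmt1 KO libraries. Per the labels and the study's methods, the authors made stranded total RNA libraries with rRNA depletion, sequenced paired ends and ran Trim Galore, STAR (build GRCm39), Salmon and, for normalization, DESeq2. Strand-aware counting is not given in the sources used here. The deposited signal values are counts divided by size factors. Of the values above 0, 100% were whole multiples of the smallest value of their library (tolerance 1e-04 reads), so whole reads were recovered for the count tests.

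Here log2(normalized count + 1) was tested with limma 3.58.1 in R 4.3.3, with genotype as the only term and a trend of the prior variance over expression, over 14323 genes with a mean of at least 10. Calls are at a Benjamini-Hochberg adjusted p below 0.05, fold changes are on the log2(value + 1) scale, which understates changes of low genes, and intervals are 95%. The code was tested on simulated data. Alternatives were edgeR 4.0.16, DESeq2 1.42.0 and limma-voom on recovered reads, TMM factors, quantile normalization, pseudocounts of 0.5 and 10, minimum means of 1 and 50 and no filter, no variance trend, removal of a spline trend (5 degrees of freedom) over transcript length and GC content, a replicate block, and leaving out each library, after which the lone library of its group is assumed to vary like the others. Lengths, GC content, positions and exon overlaps came from GENCODE M39 (GRCm39).

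Members and lists were chosen with earlier results of these data known. By the rule for named genes, values per library are given for called members with an absolute log2 fold change of at least 0.3, the most counted member of each role group, paralogs of called genes whose call differs, and the most changed called gene of each other list in each direction. Rab3a, Rab5b, Rab12, Vps13d, the members closest to the threshold and the promoter motif were chosen after their values were seen. Vps35l was moved to the members once the table showed that the rule takes it, and 1 listed effector was under another symbol.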

Additional observations from a re-analysis of the deposited data

How the results depend on the processing

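The direction of the 6 called members held under all 18 alternatives, 17 for Rab13, which a minimum mean of 50 removes. The calls did not. The 3 Rab genes called higher became 0 with DESeq2, without a variance trend, without a filter on low counts and with quantile normalization, 5 with the length and GC trend taken out, 6 when that was joined with the replicate block, and 0 to 3 without 1 library each (0 without KO replicate 1, KO replicate 2 or control replicate 2). The 1 Rab gene called lower became 0 with DESeq2, without a variance trend and at a minimum mean of 50, 2 with the replicate block, alone or with the trend removed, and 0 to 2 without 1 library. The 2 Vps genes called higher became 0 with DESeq2 and without a variance trend, 1 with the trend removed, a minimum mean of 1, no filter or quantile normalization, 4 with the replicate block, and 0 to 3 without 1 library (0 without KO replicate 2 or control replicate 2, 1 without control replicate 1). With the trend removed the 1 Vps call was Vps33a, so neither Vps13c nor Vps13d kept its call. Trend removal with the replicate block called 2 Vps genes, and 0 of the reported 2 were among them. The Rab median of 0.01 became -0.03 after trend removal with or without the block and ran from -0.06 to 0.04 without 1 library, and the Vps median of 0.08 ran from 0.01 to 0.11. Of the other pathway genes, the 20 called higher became 10 with DESeq2, 0 without a variance trend and 12 to 17 without 1 library (12 without control replicate 2), and the 2 called lower became 0 with DESeq2 and without a variance trend, 4 with the replicate block, alone or with trend removal, and 0 to 5 without 1 library. Leaving out 1 library turned the sign of Rab5c (-0.14 to 0.021), Rab7 (-0.08 to 0.039), Rab3b (-0.16 to 0.49), Vps26b (-0.0041 to 0.12) and Vps13a (-0.019 to 0.23), none of them called, and trend removal with or without the block turned Vps13a to -0.15. Of 377 values recomputed for the 21 named members, 319 kept direction and side of the threshold, 43 lost the call, 8 gained it and 7 changed sign. Over all genes, DESeq2 called 1176, the fit without a variance trend 0 (3339 at unadjusted p below 0.05), leaving out control replicate 1 or 2 1648 and 1525, and the replicate block 2957, against 2476. Same-numbered libraries did not deviate together (r = -0.0847 over 14323 genes, 0.0157 over 8418 genes with a mean of at least 100). The labels do not say whether the numbers pair the samples, and a correlation across genes cannot exclude shared handling. Apart from the variants described, the cause of each shift was not tested. With 2 libraries a genotype, differences of members with few counts, such as Rab27b and Rab39, were not detectable unless large.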

Other observations

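Rows whose symbols begin with Rab or Vps but which the rule does not take were also measured. The Rab11-family interacting proteins and Rabgap1l are already counted above, among the effectors and the GTPase-activating proteins, and their calls are not additional. The Rab11-family interacting proteins link Rab11 to motors, and 2 of the 5 measured were called higher in Dnmt1 KO, where 8.3% of all genes tested and 20.5% of protein-coding genes with transcripts of 6 kb and over were. Rab11fip2 had 310.5 and 297.1 normalized counts in control and 397.5 and 439.2 in KO (log2 fold change 0.46, limma adjusted p = 0.00556), a call that DESeq2 did not make (adjusted p = 0.0576). Rab11fip4 had 1102 and 1154 in control and 1410 and 1508 in KO (0.37, limma adjusted p = 0.0011). Rab11fip5, with 271.1 and 242.0 in control and 323.5 and 317.9 in KO, did not pass (0.32, limma adjusted p = 0.058). Rab11fip3 had overlapping groups (0.0563, limma adjusted p = 0.633). Rab11fip1, with few counts, went the other way without passing. It had 37.58 and 22.46 in control and 21.70 and 15.30 in KO (-0.645, limma adjusted p = 0.288). Rabgap1l, a protein with a Rab GTPase-activating domain, rose from 466.2 and 482.9 to 587.9 and 644.6 (0.38, limma adjusted p = 0.00733). Its call was lost with the length and GC trend taken out, where it stood at 0.15 (limma adjusted p = 0.291), and with DESeq2 (adjusted p = 0.0598).

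The antisense RNA Rab10os had 111.0 and 89.84 in control and 92.72 and 100.5 in KO, which overlap. The processed pseudogene Rab11b-ps2 had 34.00 and 31.65 in control and 21.70 and 27.31 in KO, and shares sequence with Rab11b.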
